A study of Mus musculus with 12 samples.

Results

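The immunoglobulin variable (V) segment genes were the genes that GENCODE M21 types as IG_V_gene with a symbol starting in Ighv, Igkv or Iglv and with a summed expected count of at least 10 over all libraries. 163 of 216 such V genes in the tables met this, out of 53458 genes in all. They were 73 heavy chain segments (Ighv) in 13 families, 87 kappa light chain segments (Igkv) in 16 families and 3 lambda light chain segments (Iglv). Of the other V genes, 35 had no count in any library and 18 had a count below the threshold. Ighv2-6-8, with a summed count of 9, fell just outside it, and Ighv1-47 and Igkv3-3, each with 11, just inside. The summed count chose the members, so these totals are a description only.

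The data were bulk RNA-seq of 12 libraries from mouse inguinal lymph nodes, titled as cDC1, the type 1 conventional dendritic cells that cross-present antigen to CD8 T cells. The 4 groups of 3 libraries each were Tumor-CD40 (KPC tumor, placed subcutaneously per the title, and a CD40 agonist), Tumor-NoCD40 (tumor, no agonist), NoTumor-CD40 (agonist, no tumor) and NoTumor-NoCD40 (neither). The labels give no strain, sex, age, dose, time or sort gate. Nor is it stated that each library is its own animal or pool, and a p-value here covers no more than library-to-library spread, which may be technical.

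An antibody's antigen-binding end is built from V segments. During B cell development a single V segment of the heavy chain locus is joined to D and J segments by the Rag1 and Rag2 recombinase, and a V segment of the kappa or lambda locus is joined to a J segment. A mature B cell or plasma cell therefore transcribes mainly the V segments it has rearranged, and a clone carries its V segments to all its daughters. In a bulk library the set of V transcripts is a record of which rearrangements the sampled RNA held, and an even spread over many segments differs from a profile led by a few. In mice most light chains are kappa, and the largest heavy chain family is Ighv1, historically called J558.

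The 73 Ighv members lie on chromosome 12 between 113578504 and 116000461, the 87 Igkv members on chromosome 6 between 67555497 and 70704177, and the 3 Iglv members on chromosome 16 between 19085017 and 19260859 (GRCm38, GENCODE M21). V segments of a family are near copies, which limits how well short reads can be divided between them. 72 of the 163 members had more than 50% of their 31-base words also present in a transcript of another gene, and 6 had none. The median share was 44.7% for Ighv, 50% for Igkv and 36.5% for Iglv. The values of single segments below are therefore the quantifier's division of shared reads, and close relatives are uncertain. To show how close, the 90 bases at the 3′ end of the transcript are given for segments beside a relative. This is the end of the V exon, around the start of the third hypervariable loop. The segments are Igkv17-121 and the library leaders Igkv8-30, Ighv5-16 and Ighv1-26. Ighv5-16 had only 4.23% of its 31-base words in other genes, against 74.8% for Ighv1-26, 46.3% for Igkv17-121 and 39.05% for Igkv8-30. Bases run in the transcript's direction, with capitals for those that differ within each pair.
Igkv17-121: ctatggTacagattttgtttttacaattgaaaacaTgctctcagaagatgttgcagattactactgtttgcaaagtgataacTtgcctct
Igkv17-127: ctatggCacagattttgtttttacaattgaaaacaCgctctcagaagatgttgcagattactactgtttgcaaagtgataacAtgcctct
Igkv8-30: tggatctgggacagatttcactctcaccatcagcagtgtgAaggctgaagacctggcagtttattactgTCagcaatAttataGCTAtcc
Igkv8-21: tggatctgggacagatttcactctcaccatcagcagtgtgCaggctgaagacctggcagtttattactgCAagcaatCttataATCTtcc
Ighv5-16: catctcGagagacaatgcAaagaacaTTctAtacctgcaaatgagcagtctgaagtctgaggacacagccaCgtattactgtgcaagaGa
Ighv5-6: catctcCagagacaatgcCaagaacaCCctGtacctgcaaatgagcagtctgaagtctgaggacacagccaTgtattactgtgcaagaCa
Ighv1-26: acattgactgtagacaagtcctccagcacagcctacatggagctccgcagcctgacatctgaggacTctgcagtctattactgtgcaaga
Ighv1-18: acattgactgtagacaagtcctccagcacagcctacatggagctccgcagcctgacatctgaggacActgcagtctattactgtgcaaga
Igkv17-121 (chr6:68037229-68037318, plus strand) and Igkv17-127 (chr6:67861570-67861659, plus strand) differed at 3 of the 90 bases. Igkv8-30 (chr6:70117064-70117153, minus strand, its last 3 bases left off for the alignment) and Igkv8-21 (chr6:70314895-70314984, minus strand) differed at 8. Ighv5-16 (chr12:113838526-113838615, minus strand) and Ighv5-6 (chr12:113625506-113625595, minus strand) differed at 7. Ighv1-26 (chr12:114788372-114788461, minus strand) and Ighv1-18 (chr12:114682632-114682721, minus strand) differed at 1.

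Libraries held 22855143 to 27163393 expected counts, of which V segments took 310 to 17491. The summed V level, in CPM (counts scaled to the TMM effective library size), was 756.8, 284.5 and 680.3 in Tumor-CD40 replicates 1, 2 and 3. It was 127.5, 44.6 and 254.9 CPM in Tumor-NoCD40, 84.2, 35.2 and 36.2 CPM in NoTumor-CD40, and 38.3, 11.9 and 23.7 CPM in NoTumor-NoCD40. Every Tumor-CD40 library was above every other library, and the highest of the others, Tumor-NoCD40 replicate 3, was close to the lowest Tumor-CD40 library. Since the members were chosen on their counts, the sum is given without a test.

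In ratios of geometric means, the summed V level with the CD40 agonist and a tumor was 4.66 times that with a tumor alone, and the groups did not overlap. Without a tumor, the level with the agonist was 2.15 times that without it, and the groups overlapped. The level with a tumor and no agonist was 5.13 times that of NoTumor-NoCD40, and the level with both was 11.1 times that of NoTumor-CD40, with no overlap in either pair. The titles begin with a number that 11 of the 12 libraries share with libraries of other groups (NoTumor-NoCD40 replicate 3 has its own), and the labels do not say what it marks. Within a shared number, the 3 log2 ratios for the agonist with a tumor lay between 1.42 and 2.67, and the 3 for the tumor with the agonist between 3.02 and 4.23. The pairs without a tumor gave 1.14 and 1.57 for the agonist, and those without the agonist gave 1.74 and 1.91 for the tumor. In bulk RNA, more cells of a type and more RNA per cell cannot be told apart.

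**Figure D1:**
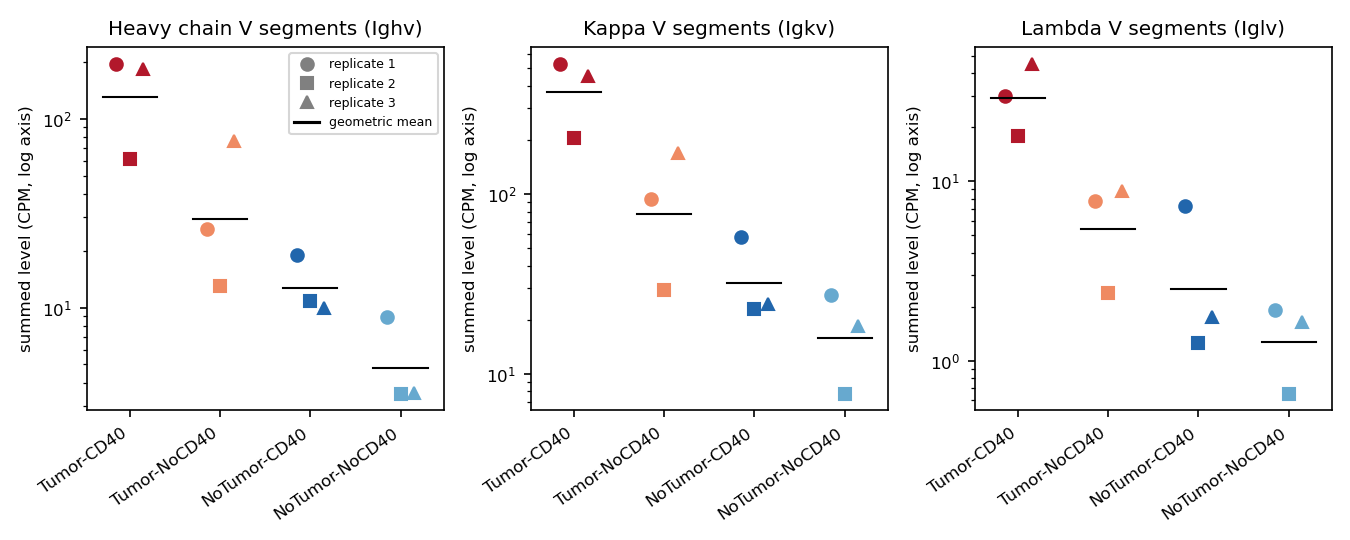
Summed level of the heavy chain, kappa and lambda V segments in each library, in CPM on a log axis; points are libraries (shape gives the replicate) and lines the geometric means of 3. All 3 loci had their highest mean in Tumor-CD40, and Tumor-NoCD40 replicate 3 reached 76.5 CPM in the heavy chain panel, above Tumor-CD40 replicate 2 at 61.2 CPM.

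The 3 loci moved together. Heavy chain segments averaged 146.7 ± 74.3 CPM in Tumor-CD40, 38.5 ± 33.6 CPM in Tumor-NoCD40, 13.3 ± 5.03 CPM in NoTumor-CD40 and 5.31 ± 3.12 CPM in NoTumor-NoCD40 (SD, n = 3 each). Kappa segments averaged 396.2 ± 170.0, 97.6 ± 70.3, 35.2 ± 19.7 and 17.9 ± 9.86 CPM in the same order of groups. Lambda segments averaged 30.99 ± 13.7, 6.31 ± 3.45, 3.43 ± 3.35 and 1.402 ± 0.663 CPM. The division between loci was similar in all groups, measured as counts divided by the length of each gene's longest annotated transcript (counts per length). Kappa segments made up 69.7 ± 2.67% of V counts per length in Tumor-CD40, 68.6 ± 4.29% in Tumor-NoCD40, 66.9 ± 2.43% in NoTumor-CD40 and 72.0 ± 6.54% in NoTumor-NoCD40. Lambda segments made up 7.20 ± 1.90%, 6.43 ± 1.58%, 7.58 ± 2.90% and 7.13 ± 0.69% of the light chain counts per length, differences smaller than the spread between libraries.

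Members were spread thinly. 34 of the 163 had a count in all 12 libraries, 26 in at most 3 and 6 in only 1. 137 had their highest CPM in a Tumor-CD40 library, 15 in a Tumor-NoCD40, 7 in a NoTumor-CD40 and 4 in a NoTumor-NoCD40 library. The summed count that chose the members favors segments seen in Tumor-CD40, which averaged 13850 V counts. The other groups averaged 3763, 1286 and 629 in the same order, so these numbers are a description only. 96 members had more than 50% of all their counts in a single library. That number also depends on V depth, since Tumor-CD40 replicates 1 and 3 held 17491 and 17163 V counts and replicate 2 held 6892.

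Segments with at least 1 count numbered 132, 132 and 146 in Tumor-CD40, 120, 83 and 117 in Tumor-NoCD40, 118, 111 and 92 in NoTumor-CD40, and 115, 92 and 62 in NoTumor-NoCD40. All Tumor-CD40 libraries held more than any other library. That number follows depth: with V counts thinned in expectation to the 310 of the smallest library, it was 66.7, 78.6 and 86.6 in Tumor-CD40, 62.8, 59.4 and 43.4 in Tumor-NoCD40, 72.8, 75.9 and 68.6 in NoTumor-CD40, and 83.0, 92.0 and 51.4 in NoTumor-NoCD40. At equal V depth, Tumor-CD40 was still above Tumor-NoCD40 in every library, by 22.1 segments on average, but it overlapped both tumor-free groups. Tumor-NoCD40 lay at the lower end: its 3 libraries were under those of NoTumor-CD40 and under NoTumor-NoCD40 replicates 1 and 2.

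The effective number of segments, the exponential of Shannon's entropy of the counts, is the number of equally abundant segments that would give the same diversity. It was 40.3, 63.5 and 69.9 in Tumor-CD40, 34.7, 36.7 and 26.0 in Tumor-NoCD40, 51.7, 42.9 and 54.5 in NoTumor-CD40, and 66.4, 62.7 and 21.6 in NoTumor-NoCD40. Tumor-CD40 averaged 25.4 segments more than Tumor-NoCD40, with no overlap. Tumor-NoCD40 averaged 17.8 fewer than NoTumor-NoCD40, and these groups overlapped through 1 library, NoTumor-NoCD40 replicate 3. Without that library the difference was 32.1 fewer. The 10 leading segments held 56.3%, 38.4% and 39.1% of V counts per length in Tumor-CD40, 59.97%, 57.8% and 66.9% in Tumor-NoCD40, 41.1%, 49.0% and 36.1% in NoTumor-CD40, and 33.5%, 37.7% and 72.1% in NoTumor-NoCD40. Evenness, the entropy over its largest possible value, averaged 0.820 ± 0.054, 0.747 ± 0.066, 0.837 ± 0.044 and 0.848 ± 0.091 (SD, n = 3 each) in the same order of groups, with overlap in every comparison.

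**Figure D2:**
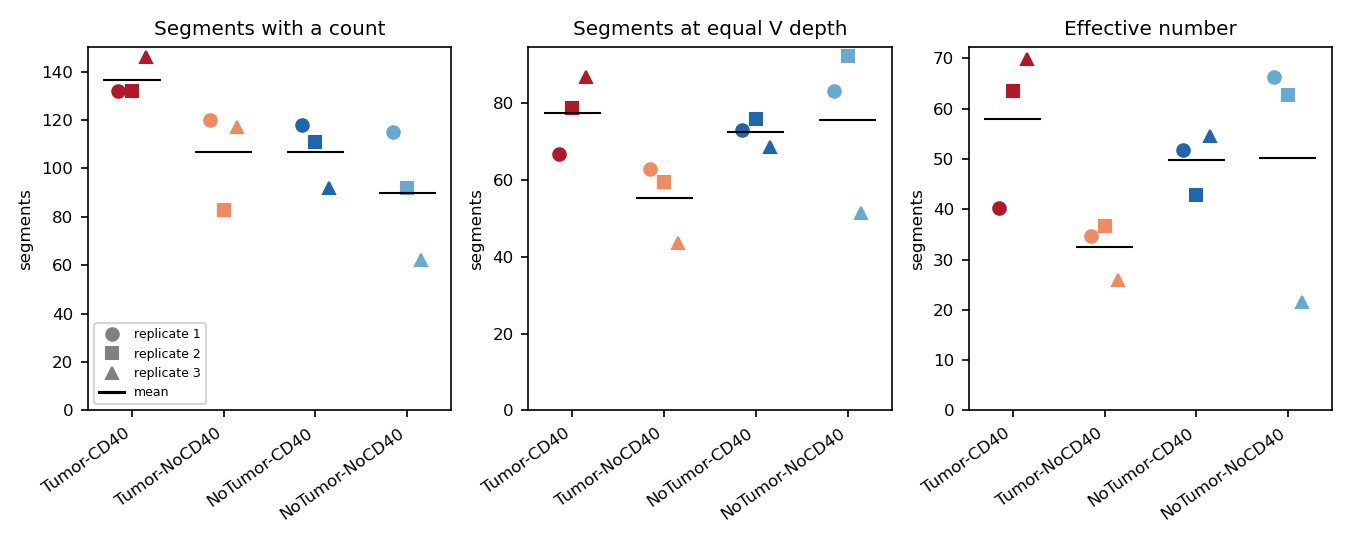
Segments with at least 1 count, segments expected at 310 V counts, and effective number of segments in each library; points are libraries, lines the means of 3. Tumor-CD40 leads the left panel with 132 to 146 segments, Tumor-NoCD40 is low in the right panel with 26.0 to 36.7, and NoTumor-NoCD40 replicate 3 stands apart from its group with 21.6.

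The leading segments differed between libraries, though several led more than 1. By counts per length, 7 different Ighv and 10 different Igkv segments led the 12 libraries. Ighv5-16 led in Tumor-CD40 replicate 1 with 29.0% of Ighv counts per length, in Tumor-NoCD40 replicate 1 with 16.8% and in NoTumor-NoCD40 replicate 1 with 11.8%. Ighv1-26, of the J558 family, held 14.2% in Tumor-CD40 replicate 2 and 30.6% in Tumor-NoCD40 replicate 2. Ighv8-12 held 24.0% in Tumor-NoCD40 replicate 3, and Ighv14-1 held 14.2% in Tumor-CD40 replicate 3. In the tumor-free groups, Ighv1-75 held 30.7% in NoTumor-CD40 replicate 2, where its count was 86, and Ighv1-74 held 12.75% in NoTumor-NoCD40 replicate 2 with a count of 11. Ighv1-34 led in NoTumor-CD40 replicate 3 with 15.3% and in NoTumor-NoCD40 replicate 3 with 17.6%. Outside these 2 libraries it had a count only in Tumor-CD40 replicate 3. In NoTumor-CD40 replicate 1, Ighv1-26 and Ighv1-80 tied at 9.90%, Ighv1-26 being counted as the leader, and Ighv5-17 had the most counts. Ighv1-80 was high in several libraries, with 17.85% in Tumor-CD40 replicate 1, 17.1% in NoTumor-CD40 replicate 2 and 10.3% in Tumor-NoCD40 replicate 1. The tumor-free shares rest on few counts: as a share of plain Ighv counts, Ighv1-74 had 12.09% (95% Wilson interval 6.89% to 20.4%) and Ighv1-75 31.3% (26.1% to 37%), while Ighv5-16 in Tumor-CD40 replicate 1 had 29.55% (28.2% to 30.9%). These intervals cover counting error only.

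Kappa leaders behaved likewise. Igkv8-30 held 21.9% of Igkv counts per length in Tumor-NoCD40 replicate 1 and 21.7% in replicate 3, but only 4 counts in replicate 2. Igkv4-57 held 16.3% in Tumor-NoCD40 replicate 2 and 12.2% in Tumor-CD40 replicate 3. Igkv6-23 held 16.6% in Tumor-CD40 replicate 1, where Igkv1-135 had slightly more counts, and Igkv4-55 held 6.87% in Tumor-CD40 replicate 2. In the tumor-free groups Igkv13-85 reached 28.1% in NoTumor-NoCD40 replicate 3, with a count of 121, Igkv2-137 21% in NoTumor-CD40 replicate 2, and Igkv5-43 19.3% in NoTumor-CD40 replicate 1. The leading kappa shares of the other tumor-free libraries were smaller: Igkv10-96 led NoTumor-CD40 replicate 3 with 6.66%, Igkv1-117 led NoTumor-NoCD40 replicate 1 with 6.90%, and Igkv5-39 led NoTumor-NoCD40 replicate 2 with 7.84%. Among the lambda segments Iglv1 led in 10 of 12 libraries, with 50.6% to 90.1% of Iglv counts per length there. The lambda exceptions were Tumor-NoCD40 replicate 1 and NoTumor-CD40 replicate 2, both led by Iglv2, with 62.4% and 54.7%. Of the 36 pairs of library and locus, 28 had the same leader by deposited TPM.

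**Figure D3:**
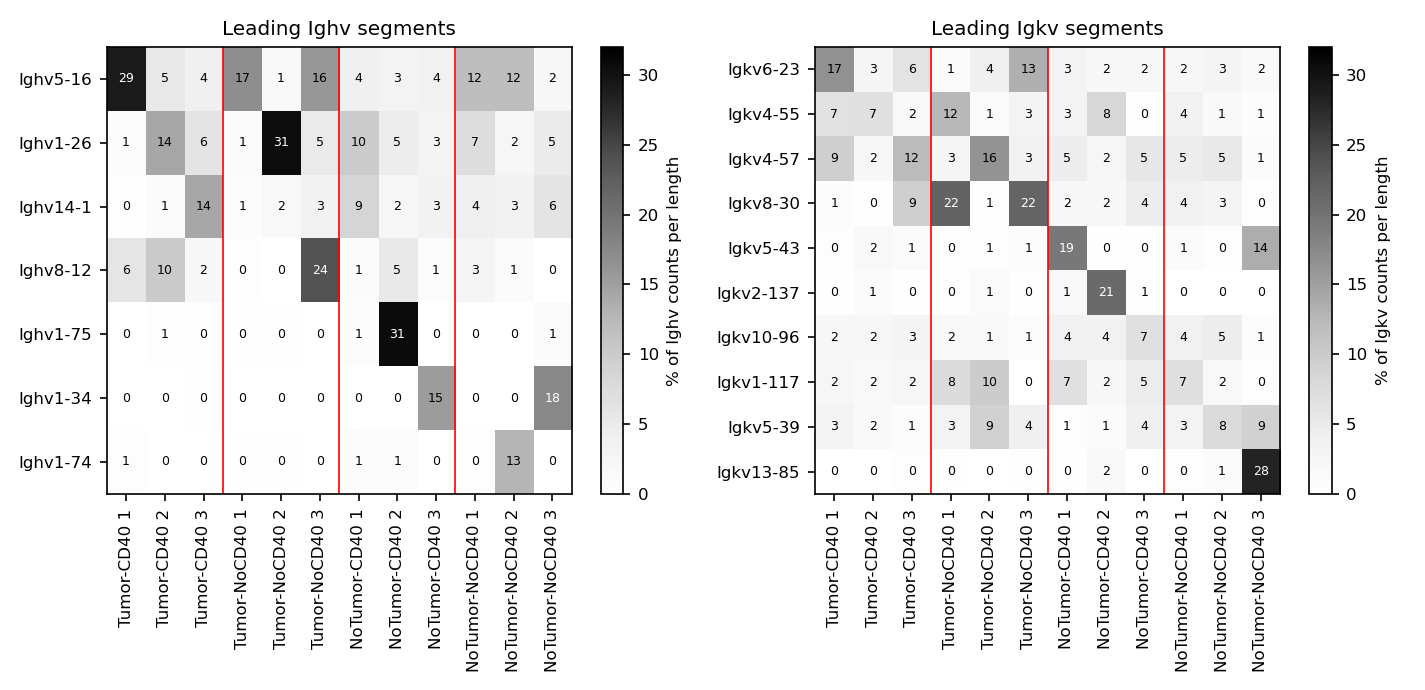
Share of each library's Ighv counts per length (left) or Igkv counts per length (right) held by every segment that led at least 1 library; red lines divide the groups and numbers are rounded percent. Dark cells stand mostly alone in their row, such as Ighv1-75 at 30.7% and Igkv13-85 at 28.1%, while Ighv5-16 and Igkv8-30 are high in several libraries.

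The V profile of a library was about as close to other groups' libraries as to those of its own group. Shared percent, the sum over segments of the smaller of the 2 libraries' shares, had a median of 33.6% for Ighv over the 12 pairs within a group and 35.4% over the 54 pairs between groups. For Igkv the medians were 45.2% within and 42.2% between groups. The 15 pairs with the same number in their titles had medians of 34.96% for Ighv and 46.1% for Igkv, against 35.06% and 41.7% for the other 51 pairs. NoTumor-NoCD40 replicate 3 and Tumor-NoCD40 replicate 3 had the lowest mean shared percent for Igkv, 24.9% and 28.1%, while the other libraries had 39.1% to 48.4%. Pairs share libraries and V depth differs between libraries, so these values are a description.

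By family, Ighv1 had 36 members of 53 genes in the tables and averaged 50.9% of Ighv counts per length, near its 46.9% of Ighv genes. Its mean share was 46.6 ± 5.49% in Tumor-CD40, 47.4 ± 12.8% in Tumor-NoCD40, 63.3 ± 8.25% in NoTumor-CD40 and 46.2 ± 9.32% in NoTumor-NoCD40 (SD, n = 3 each). Ighv5, which lies at the end of the locus nearest the D segments, averaged 15.4% from 8.85% of the genes, with 17.5 ± 12.5%, 15.15 ± 12.04%, 10.9 ± 5.03% and 18.2 ± 7.97% in the same order of groups. Ighv8 ranged over libraries from 0 to 32.1%, the highest in Tumor-NoCD40 replicate 3. Ighv2, the Q52 family, had 3 members of 9 genes and averaged 1.32%. No member came from Ighv11, Ighv12 or Ighv16.

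Igkv4 was the largest kappa family, with 23 members of 26 genes and an average of 22.3% of Igkv counts per length. Its share was 25.0 ± 1.52% in Tumor-CD40, 31.9 ± 5.64% in Tumor-NoCD40, 18.2 ± 3.35% in NoTumor-CD40 and 14.3 ± 9.38% in NoTumor-NoCD40. Igkv6 followed with 12.6%, Igkv1 with 11.6%, Igkv8 with 9.85%, Igkv5 with 8.39% and Igkv12 with 6.33%. Igkv3, all of whose 9 genes were members, averaged 4.94%. Igkv8 reached 16.4 ± 11.7% in Tumor-NoCD40, carried by Igkv8-30, and was 7.73 ± 5.69% in Tumor-CD40. The families' groups mostly overlapped, and no family share was tested.

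Kappa V segments lie in both orientations, so that some join Jk by inversion and others by deletion. 34 Igkv members are on the strand of the constant gene Igkc and 53 on the other. Members on the Igkc strand held 43.0%, 36.4% and 30.4% of Igkv counts per length in Tumor-CD40, 25.3%, 29.2% and 18.7% in Tumor-NoCD40, 37.7%, 48.8% and 45.1% in NoTumor-CD40, and 30.8%, 37.4% and 30.1% in NoTumor-NoCD40. Tumor-NoCD40 was the lowest group without overlap, its highest library at 29.2% and the lowest of the others at 30.1%. In its replicates 1 and 3 Igkv8-30, on the opposite strand, alone held 21.9% and 21.7%.

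Single segments were tested with edgeR's quasi-likelihood test across all 18095 genes that passed the filter on low counts, with Benjamini-Hochberg adjustment at 0.05. 92 of the 163 members passed that filter and 71 did not. 54 of the 92 passed only because the Tumor-CD40 libraries were counted, and 38 would have passed without them. A segment that entered through Tumor-CD40 had to be high there, so the counts of calls that follow describe single segments and are no measure of the family as a whole.

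With a tumor present, libraries with the CD40 agonist held more of a set of kappa segments. 22 members rose and none fell in Tumor-CD40 relative to Tumor-NoCD40 (0.641% of all tested genes rose, 0.0442% fell and 0.685% were called either way). They were 19 kappa and 3 heavy chain segments, and 9 of the 22 were among the 38 that passed the filter without Tumor-CD40. Those 9 were Igkv17-121, Igkv17-127, Igkv4-72, Igkv14-111, Igkv1-135, Igkv10-96, Igkv19-93, Igkv4-59 and Igkv6-15. The other calls entered through Tumor-CD40, where they had to be high. Over those 38 the median log2 fold change was 2.37, beside −0.02 over all genes tested; the 54 that entered through Tumor-CD40 are left out of it. The B cell markers moved with them: 13 of 17 B cell genes rose, with a median of 3.02, and their summed level was 869.4 to 2420 CPM in Tumor-CD40 and 110.5 to 227.2 CPM in Tumor-NoCD40. Their part in the V result was not tested.

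Igkv17-121 had the smallest adjusted p of the members. It had 7.88, 4.54 and 5.99 CPM in Tumor-CD40, against 0.21, 0.30 and 0.25 CPM in Tumor-NoCD40. The 6 values do not overlap and are tight within each group, and the log2 fold change was 4.56 ± 0.50 (SE, edgeR, adjusted p = 0.000202). Its near copy Igkv17-127, printed above, had 8.61, 5.74 and 5.15 CPM, against 1.28, 0.94 and 0 CPM, a log2 fold change of 3.16 ± 0.53 (edgeR, adjusted p = 0.00721). Igkv8-21 had 3.20, 7.93 and 4.56 CPM, against 0.29, 0.08 and 0.22 CPM (log2 4.74 ± 0.715, edgeR, adjusted p = 0.00466). These 3 were the segments called under each of the 12 fits that left out 1 library. Igkv17-121 and Igkv17-127 passed the filter without Tumor-CD40, but Igkv8-21 entered the test only through it.

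Other segments with small p-values were less even. Igkv4-72 had 8.26, 12.5 and 3.73 CPM in Tumor-CD40, against 0.33, 0.45 and 0.07 CPM in Tumor-NoCD40 (log2 4.83 ± 0.80). Igkv6-25 had 17.3, 3.88 and 3.49 CPM, against 0.08, 0.11 and 0.15 CPM (log2 6.08 ± 0.995). Igkv9-124 had 1.90, 10.7 and 15.2 CPM, against 0.33, 0.79 and 0.15 CPM (log2 4.45 ± 0.75). Each of them was highest in a different Tumor-CD40 library, yet in each the groups stayed apart, and the edgeR adjusted p-values were 0.00658, 0.00721 and 0.00980.

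Igkv4-68, Igkv3-2, Igkv9-120, Igkv14-111, Igkv5-48 and Igkv14-100 completed the first 12, with edgeR adjusted p-values of 0.00980 to 0.0146. Igkv14-111 was the most even of them, at 3.07, 3.30 and 4.40 CPM in Tumor-CD40, against 0.08, 0.04 and 0.04 CPM in Tumor-NoCD40 (log2 6.01 ± 1.02). Igkv3-2 had 0.95, 3.14 and 16.2 CPM, against 0.29, 0.11 and 0.11 CPM (log2 5.33 ± 0.99). Igkv9-120 had 18.8, 0.54 and 6.98 CPM, against 0.12, 0 and 0.18 CPM (log2 6.34 ± 1.16). In the rest of the 22, the most abundant was Igkv1-135, with 88.0, 8.05 and 18.4 CPM, against 4.38, 0.45 and 0.36 CPM (log2 4.52 ± 0.87, edgeR, adjusted p = 0.0263).

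The 3 heavy chain calls came late in the list. Ighv1-81 had 10.6, 0.70 and 4.003 CPM in Tumor-CD40, against 0.25, 0 and 0 CPM in Tumor-NoCD40 (log2 5.95 ± 1.23, edgeR, adjusted p = 0.0301). Ighv5-4 had 2.68, 1.20 and 2.34 CPM, against 0.17, 0 and 0.11 CPM (log2 4.46 ± 1.02, edgeR, adjusted p = 0.0452). Ighv1-55 had 9.22, 0.25 and 6.34 CPM, against 0.45, 0 and 0.07 CPM (log2 4.94 ± 1.09, edgeR, adjusted p = 0.0440), the single call of the 22 whose groups overlapped. Of the 38 members that passed the filter without Tumor-CD40, 17 were higher in every Tumor-CD40 than in every Tumor-NoCD40 library. None was lower in all. Of all 18095 tested genes, 6.5% were higher without overlap and 979 genes were lower without overlap.

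The leading segments were mostly not among the calls. Ighv5-16 had 57.9, 3.39 and 7.33 CPM in Tumor-CD40, against 4.50, 0.19 and 12.6 CPM in Tumor-NoCD40 (log2 1.96 ± 0.84, edgeR, adjusted p = 0.444). Igkv8-30 had 3.59, 0.62 and 42.4 CPM, against 20.4, 0.15 and 37.2 CPM (log2 −0.30 ± 0.94, edgeR, adjusted p = 0.960). Igkv6-23 had 87.5, 5.53 and 28.3 CPM, against 1.20, 1.13 and 22.8 CPM (log2 2.24 ± 0.83, edgeR, adjusted p = 0.347). These segments were very high in single libraries of either group, and the libraries of a group differed more than the groups did. The 22 called segments had means of 2.07 to 38.2 CPM in Tumor-CD40.

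The count of 22 depended on single libraries and on the model. It was 12 without Tumor-CD40 replicate 3, 6 without Tumor-NoCD40 replicate 1 and 7 without Tumor-NoCD40 replicate 3. It was 14 without NoTumor-NoCD40 replicate 2, which is outside the comparison but enters the shared estimate of spread. These fits tested 97, 124, 123 and 123 members, and 11, 5, 4 and 14 of the 22 were kept. They called 45 of 19716, 26 of 19727, 48 of 19637 and 83 of 19773 genes, against 124 of 18095 with all libraries. The count was 3 with edgeR's older quasi-likelihood fit (61 of 18095 genes) and 9 with limma on log2(TPM + 1) (29 of 18095). Igkv17-121 was the only one of the 22 called in every fit that was run.

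**Figure D4:**
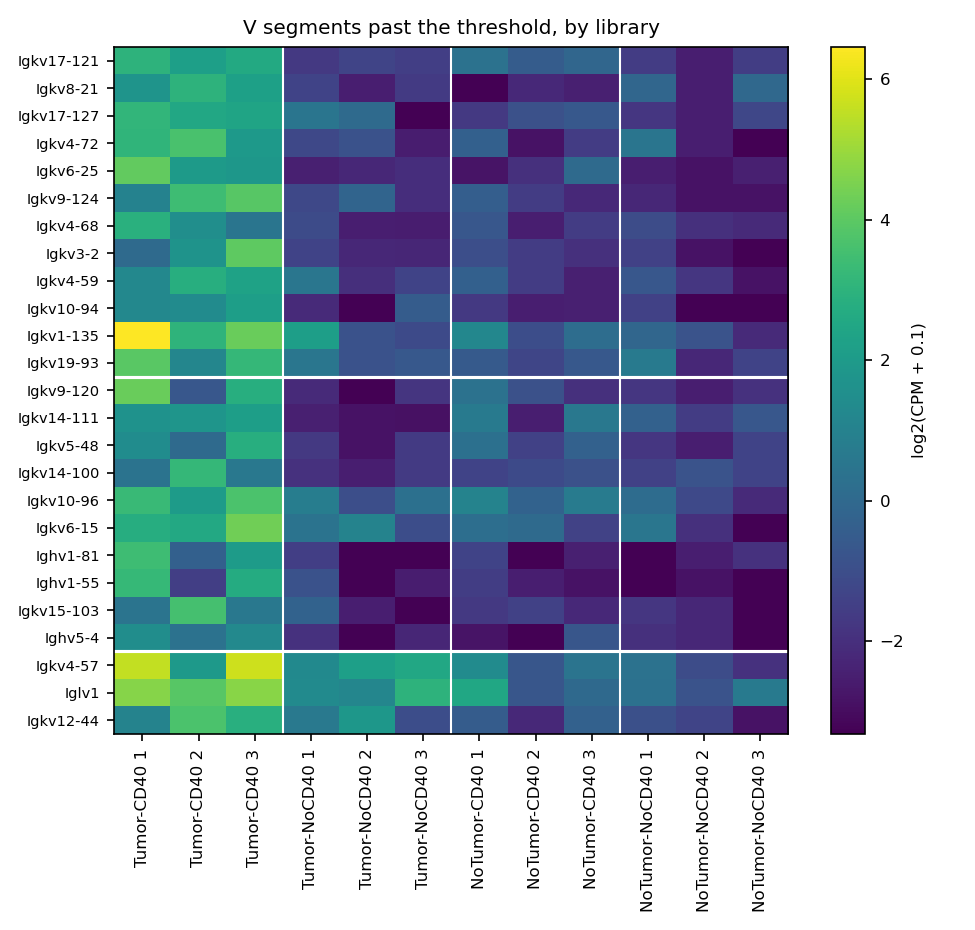
Level of the 25 segments past the threshold in either comparison, as log2(CPM + 0.1), by library; the rows above the upper white line passed in both comparisons that involve Tumor-CD40 (12), those between the lines only with the agonist contrast (10) and those below only with the tumor contrast (3). The Tumor-CD40 columns are the brightest in nearly every row, with Igkv1-135 at 88.0 CPM in replicate 1 the highest value.

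Among agonist-treated libraries, the tumor went with higher levels of many of these segments. 15 members rose and none fell in Tumor-CD40 relative to NoTumor-CD40 (0.193% of all tested genes rose, 0.00553% fell and 0.199% were called either way); they were 14 kappa segments and Iglv1. 9 of the 15 were among the 38 that passed the filter without Tumor-CD40. Those 9 were Igkv17-121, Igkv17-127, Igkv4-72, Igkv4-57, Igkv4-59, Igkv1-135, Igkv12-44, Igkv19-93 and Iglv1. This comparison uses the same Tumor-CD40 libraries as the preceding one, so that high values there enter both. Over those 38 the median log2 fold change was 2.91, beside −0.01 over all genes tested. 7 of 17 B cell markers rose, with a median of 2.66, and their summed level was 869.4 to 2420 CPM in Tumor-CD40 and 136.8 to 310.8 CPM in NoTumor-CD40. Their part was not tested.

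Igkv17-121 again had the smallest p, with 7.88, 4.54 and 5.99 CPM in Tumor-CD40, against 1.19, 0.63 and 0.83 CPM in NoTumor-CD40 (log2 2.79 ± 0.40, edgeR, adjusted p = 0.0102). Igkv8-21 had 3.20, 7.93 and 4.56 CPM, against 0, 0.12 and 0.08 CPM (log2 6.195 ± 0.88, edgeR, adjusted p = 0.0102). Igkv17-127 had 8.61, 5.74 and 5.15 CPM, against 0.21, 0.43 and 0.56 CPM (log2 4.001 ± 0.597, edgeR, adjusted p = 0.0102). The 3 do not overlap between the groups, and of them Igkv8-21 entered the test only through Tumor-CD40. After them came Igkv4-72, Igkv9-124, Igkv6-25, Igkv3-2, Igkv4-68, Igkv4-57, Igkv10-94, Igkv4-59 and Igkv1-135, with log2 fold changes of 3.72 to 4.99 and edgeR adjusted p-values of 0.0278 to 0.0445. Igkv4-57, an abundant segment, had 47.4, 3.76 and 53.1 CPM, against 2.51, 0.51 and 1.27 CPM (log2 4.61 ± 0.81, edgeR, adjusted p = 0.0431).

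Lambda segments summed highest in Tumor-CD40, and 1 of the 3 passed the test. Iglv1, the main mouse lambda segment, had 25.7, 14.9 and 26.6 CPM in Tumor-CD40, against 5.63, 0.51 and 0.91 CPM in NoTumor-CD40 (log2 3.27 ± 0.60, edgeR, adjusted p = 0.0486). Its levels were 2.48, 2.15 and 7.92 CPM in Tumor-NoCD40 and 1.15, 0.46 and 1.48 CPM in NoTumor-NoCD40. Against Tumor-NoCD40 the log2 fold change of Tumor-CD40 was 2.40 ± 0.55 and did not pass (edgeR, adjusted p = 0.0673), although the groups do not overlap. Iglv2 and Iglv3, at 1.82 to 13.2 and 1.07 to 5.55 CPM in Tumor-CD40, passed in neither comparison. Of the 38 members that passed the filter without Tumor-CD40, 25 were higher in every Tumor-CD40 than in every NoTumor-CD40 library. None was lower in all. Of all 18095 tested genes, 6.68% were higher without overlap and 1122 genes were lower without overlap.

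No call of this comparison was kept under every fit. The fit of all 12 libraries called 36 of 18095 genes. Without NoTumor-CD40 replicate 2 or without replicate 3 no member passed, and no other gene did (0 of 19662 and 0 of 19749). Without replicate 1, 3 members passed (7 of 19620 genes). The count was 30 without Tumor-CD40 replicate 2 (71 of 19786 genes) and 6 without its replicate 3 (6 of 19716 genes). Leaving out a library changed the filter, and these fits tested 97 to 124 members. Libraries outside the comparison mattered through the shared spread. The count was 7 without Tumor-NoCD40 replicate 1 (16 of 19727 genes). It was 9, 5 and 5 without NoTumor-NoCD40 replicates 1, 2 and 3 (25 of 19662, 6 of 19773 and 6 of 19740 genes). edgeR's older fit called 0 members, DESeq2 31 and limma on log2(TPM + 1) 5 (0, 161 and 12 of 18095 genes).

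For the agonist without a tumor no member passed edgeR's test, where 1.36% of all tested genes rose, 0.0829% fell and 1.44% were called either way. 4 of the 92 members had an unadjusted p under 0.05, where 18.4% of tested genes did, and DESeq2 called 3, where it called 5.1% of tested genes. Igkv2-137 came closest: it had 1.11, 6.16 and 0.20 CPM in NoTumor-CD40 and no count in NoTumor-NoCD40 (edgeR, adjusted p = 0.0841), so it was at least 64.3-fold higher against a floor of 3 counts over the group. Most of that came from NoTumor-CD40 replicate 2. Igkv17-121 had 1.19, 0.63 and 0.83 CPM, against 0.23, 0.08 and 0.25 CPM (log2 2.24 ± 0.80, edgeR, adjusted p = 0.155). Igkv16-104 had 0.74, 0.63 and 0.59 CPM, against 0.04, 0 and 0 CPM (log2 5.19 ± 2.08, edgeR, adjusted p = 0.221). The median log2 fold change of the tested members was 1.19, beside −0.04 over all genes tested. 10 of the 92 were higher without overlap, where 11.2% of tested genes were, so the share of members lay near the background.

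For the tumor without the agonist no gene passed edgeR's test (0% of tested genes, 0 members), although 23 of the 92 members had an unadjusted p under 0.05 (5.82% of tested genes did) and DESeq2 called 2 (0.133% of tested genes). Igkv4-53 had 1.20, 0.94 and 20.2 CPM in Tumor-NoCD40, against 0.23, 0.04 and 0 CPM in NoTumor-NoCD40 (log2 6.30 ± 1.53, edgeR, adjusted p = 0.775). Ighv8-8 had 4.17, 0.45 and 6.10 CPM, against 0.19, 0.04 and 0 CPM (log2 5.43 ± 1.26), and Ighv8-12 had 0.12, 0 and 18.1 CPM, against 0.23, 0.04 and 0 CPM (log2 6.02 ± 1.79), both with an edgeR adjusted p of 0.775. All of them were highest in Tumor-NoCD40 replicate 3. Of the 92 members, 13 were higher and 2 lower without overlap (4.06% of tested genes were higher without overlap and 4.92% lower).

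Whether the agonist acted differently with a tumor was tested as an interaction, and no member or other gene passed (0% of tested genes). 10 of the 92 members had an unadjusted p under 0.05, where 9.8% of tested genes did. DESeq2 called 1 member (0.0884% of tested genes) and limma on log2(TPM + 1) called 2 (0.0111% of tested genes). Igkv8-21 had the smallest p: its log2 fold change for the agonist was 4.74 with a tumor and −3.08 without one, a difference of 7.82 ± 1.58 (SE, edgeR, adjusted p = 0.495). Igkv4-72 gave a difference of 5.38 ± 1.75 and Igkv14-111 of 5.003 ± 1.657, both with an edgeR adjusted p of 0.495. The agonist's effect is thus not shown to differ between tumor-bearing and tumor-free mice.

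Rearranged V segments are transcribed in B cells and plasma cells, and markers of these cells were set beside them. The summed level of the B cell genes Ms4a1, Cd79a and Cd79b was 406.4, 299.8 and 860.1 CPM in Tumor-CD40, 83.1, 29.3 and 30.6 CPM in Tumor-NoCD40, 114.9, 36.1 and 78.5 CPM in NoTumor-CD40, and 53.9, 19.7 and 14.4 CPM in NoTumor-NoCD40. The genes Jchain, which links antibody polymers, and Mzb1, a chaperone of antibody assembly, both marks of antibody-secreting cells, summed to 188.4, 51.0 and 89.7 CPM, to 32.4, 13.1 and 76.9 CPM, to 21.4, 6.95 and 3.29 CPM, and to 5.70, 3.11 and 8.28 CPM in the same order of groups. Tumor-NoCD40 replicate 3 stands out: its V level was 8.35 times its B cell gene level, while the ratio was 0.461 to 1.86 in the other libraries. Its Jchain and Mzb1 level was above that of Tumor-CD40 replicate 2. Jchain and Mzb1 are 2 of the 10 plasma cell genes listed, and not all of the others moved with them. In Tumor-CD40 and Tumor-NoCD40, Sdc1 averaged 4.24 and 3.68 CPM, Fkbp11 1.57 and 1.61 CPM, and Derl3 2.04 and 2.85 CPM. Eaf2 went the same way as the pair, at 2.25 and 0.81 CPM.

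**Figure D5:**
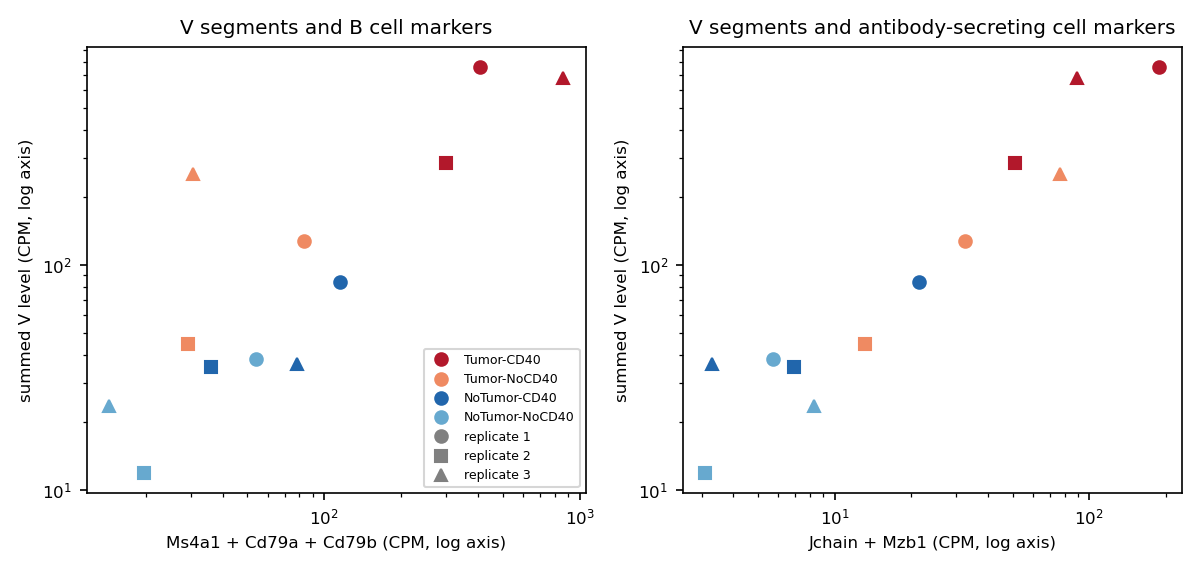
Summed V level against the summed level of Ms4a1, Cd79a and Cd79b (left) and of Jchain and Mzb1 (right), all in CPM on log axes; color gives the group and shape the replicate. Tumor-NoCD40 replicate 3, with 254.9 CPM of V segments and 30.6 CPM of B cell genes, has the highest V level relative to B cell genes on the left. On the right it lies among the other libraries.

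Over the 12 libraries, the genes outside the immunoglobulin loci whose log2 level followed the summed V level most closely were Slpi, a secreted protease inhibitor, with a Pearson r of 0.959, Mzb1 with 0.958 and Jchain with 0.951. The closest of the marker lists after these 2 was Pou2af1, the B cell coactivator of octamer-dependent immunoglobulin transcription, with 0.932. The libraries fall into groups, so these values only rank likeness. Of the 10 plasma cell genes listed, 9 were tested and none rose with the agonist in tumor-bearing mice (median log2 0.26), while Mzb1 rose with the tumor among agonist-treated libraries (log2 3.65 ± 0.66, edgeR, adjusted p = 0.0476). Tnfrsf17, a receptor of long-lived plasma cells, had 0 CPM in 10 of 12 libraries and at most 0.40 CPM. Summed plasma cell genes were at 199.5 to 354.4 CPM in Tumor-CD40, 139.1 to 233.5 CPM in Tumor-NoCD40, 119.6 to 177.3 CPM in NoTumor-CD40 and 117.7 to 125.5 CPM in NoTumor-NoCD40. In NoTumor-NoCD40 most of that sum was Xbp1 and Irf4, with means of 75.1 and 27.3 CPM. Jchain and Mzb1 averaged 4.56 and 1.14 CPM there, so the sum is no measure of plasma cells.

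The constant genes, to which V segments are spliced, moved less uniformly. Ighm, the constant gene of IgM, had 415.5, 375.8 and 832.7 CPM in Tumor-CD40, 219.3, 274.1 and 120.7 CPM in Tumor-NoCD40, 225.4, 234.0 and 140.8 CPM in NoTumor-CD40, and 239.6, 261.1 and 234.1 CPM in NoTumor-NoCD40. In NoTumor-NoCD40 replicate 2, where Ighv was lowest at 3.49 CPM, Ighm had 261.1 CPM. The ratio of Ighv to Ighm CPM spanned 0.0134 to 0.634. For kappa, the ratio of Igkv to Igkc CPM stayed within 0.331 to 0.827. Ighg1, the constant gene of IgG1, had 856.8, 158.5 and 265.5 CPM in Tumor-CD40, 57.6, 27.1 and 235.0 CPM in Tumor-NoCD40, 16.4, 22.3 and 8.13 CPM in NoTumor-CD40, and 14.7, 6.48 and 3.32 CPM in NoTumor-NoCD40. Its high value in Tumor-NoCD40 replicate 3 goes with that library's high V level. Of 12 constant genes tested, Ighd and Ighg2b rose with the agonist in tumor-bearing mice, and these with Ighg1 rose with the tumor under the agonist.

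Of 37 genes of antibody assembly, receptor signaling and recombination, 36 were tested. With the agonist and a tumor 6 rose and 1 fell, with a median log2 fold change of 0.29. Those that rose were Cd79b, Pax5, Pou2af1, Fcrl5, Fcmr and the kinase Syk (log2 1.41 ± 0.25), and Dclre1c, the Artemis nuclease of V(D)J joining, fell (log2 −1.32 ± 0.26, edgeR, adjusted p = 0.0343). With the tumor under the agonist 3 rose and none fell (Cd79b, Pou2af1 and Mzb1). The recombinase and precursor genes were at the floor: Rag1 and Vpreb2 had no count in any library, and the 6 listed precursor genes summed to at most 1.75 CPM. The 6 germinal center genes had no call in any comparison.

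Markers of the labelled cell type were present in all libraries but varied. Xcr1, the chemokine receptor that defines cDC1, was at 49.5 to 779.8 CPM, lowest in NoTumor-CD40 replicate 3 and Tumor-NoCD40 replicate 3. The 10 listed cDC1 genes summed to 3731 to 4934 CPM in Tumor-CD40, 1740 to 10670 CPM in Tumor-NoCD40, 2338 to 7403 CPM in NoTumor-CD40 and 6492 to 9318 CPM in NoTumor-NoCD40. T cell markers varied too, from 146.8 CPM in Tumor-NoCD40 replicate 2 to 826.2 CPM in Tumor-NoCD40 replicate 3, with no call in any comparison. With the agonist and a tumor, 1 of 12 plasmacytoid dendritic cell genes and 3 of 12 monocyte or macrophage genes rose. The plasmacytoid genes summed to 599 to 712.2 CPM in Tumor-CD40 and 309.2 to 338.7 CPM in Tumor-NoCD40, but their median log2 fold change was 0.19. Spib averaged 245.1 and 79.2 CPM and Ly6d 112.6 and 7.64 CPM in these groups, while Siglech averaged 2.51 and 2.81 CPM. The sum is thus no measure of the list as a whole. The part of other cells in the V levels was not tested.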

How the data were processed

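The deposited tables give transcript-level expected counts and TPM. Per the submitters' processing notes, the authors quantified reads with Salmon on mm10; versions are not given in the sources used here. Of 136288 transcripts, 136176 were assigned to a GENCODE M21 gene and summed, and expected counts were rounded. TPM values, deposited by the authors, served only for limma and the TPM comparison of leading segments. The members and gene lists were chosen with earlier results of these data known.

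edgeR 4.0.16 (R 4.3.3, TMM, filterByExpr with a minimum count of 10 and total of 15) fitted all 4 groups in 1 quasi-likelihood model with 8 residual degrees of freedom. DESeq2 1.42.0, limma 3.58.1, other normalization, no filter, a block for the titles' numbers and leave-outs were alternatives. edgeR was checked on simulated counts. Counts per length were chosen as a scale after the data were seen, since TPM of segments with short annotated transcripts moved far from counts. Segments were named by rule: the first 12 calls per comparison (or the 3 lowest p), the highest mean shares, library leaders, large families and threshold neighbors. 1 gene of the marker lists is not reported here and enters none of their counts or sums.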

Additional observations from a re-analysis of the deposited data

Results flagged for a closer look

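V pseudogenes, which are outside the 163 members, carried a signal in Tumor-CD40. Their summed level was 1.504 ± 0.421 CPM in Tumor-CD40 (SD, n = 3, lowest 1.19 CPM), while the highest NoTumor-NoCD40 library had 0.0765 CPM. Of 130 V pseudogenes in the tables, 7 had a summed count of at least 10. The level was 0.12 ± 0.05 CPM in Tumor-NoCD40, and in NoTumor-CD40 replicate 3 alone it was 0.87 CPM. Sequence shared with V genes lets reads of either be assigned to the other, and this was not tested.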

How the results depend on the processing

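No called value changed sign. Called members numbered 22 for the agonist with a tumor and 15 for the tumor with the agonist (124 and 36 of 18095 genes). In that order, they were 31 and 32 of 163 without the low-count filter (200 and 89 of 31027 genes). DESeq2 called 27 and 31 (314 and 161 of 18095 genes). edgeR's older fit called 3 and 0 (61 and 0 genes), and limma on log2(TPM + 1) 9 and 5 (29 and 12 genes). With 1 library left out, which changed the filter, they were 6 to 26 and 0 to 30 (26 to 226 and 0 to 71 genes). For the agonist without a tumor, against 0, there was 1 without the filter, 3 with DESeq2 and 1 with the older fit. All genes called there were 401 of 31027, 923 of 18095 and 198 of 18095, against 261 of 18095. DESeq2 called 2 for the tumor without the agonist and 1 for the interaction, and limma called 2 for the interaction (24, 16 and 2 of 18095 genes). The cause of these changes was not tested.

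The 15 pairs of libraries with the same number in their titles had correlations of 0.0023 to 0.380, above 0.1 in 6 of them. Pairs with different numbers are not given beside them, so these values do not decide whether the libraries are paired. With the number in the titles as a replicate block, 29 members were called for the agonist with a tumor and 27 for the tumor with the agonist. Calls over all genes rose too, to 229 and 83 of 18095, against 124 and 36 without the block.

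The difference in detected segments depended on the definition. For the agonist with a tumor it was 30 more, and 68.3 more at a count of at least 10. For the tumor with the agonist it was 29.7 more, 74 more at a count of at least 10 and 4.91 more at equal V depth. For the tumor without the agonist it was 17 more, and the sign turned at equal V depth (-20.2). The 310 to 1000 V counts of the NoTumor-NoCD40 libraries limit what can be said of single segments there.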
